A study of Mus musculus with 5 samples.

Results

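The sarcomere scaffold, Z-disc and assembly genes described here are 44 named genes whose proteins build, link, fold or renew the contractile unit of heart muscle, taken by symbol from the 49671 genes in the deposited counts. They were read in whole neonatal mouse hearts at postnatal day 2, in wild-type (CharmeWT) animals and in Charme knockout (CharmeKO) animals, in which the gene of the muscle long noncoding RNA Charme is disrupted. RNA was sequenced from 3 CharmeWT pools of 9 hearts and 2 CharmeKO pools of 3 hearts, with no other treatment, so hearts per pool and genotype cannot be told apart. The study asked which cardiac transcripts depend on Charme, and the comparison here is CharmeKO against CharmeWT for each of the 44 genes.

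The sarcomere is the repeating unit between neighbouring Z-discs. Thin actin filaments are anchored in the Z-disc by alpha-actinin and its partners, thick myosin filaments are tied together at the M-band by myomesins, and titin runs from the Z-disc to the M-band as an elastic scaffold. New sarcomeres need chaperones that fold myosin, and actin-nucleating and capping proteins that set thin-filament length. Ubiquitin ligases and co-chaperones remove worn parts. In bulk hearts, fewer cardiomyocytes and less RNA per cardiomyocyte cannot be told apart.

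Charme had 810, 183 and 276 counts in CharmeWT pools 1 to 3 and 57 and 79 in CharmeKO pools 1 and 2, all CharmeKO values lying below every CharmeWT value (log2 fold change -2.49, SE 0.55, edgeR quasi-likelihood test with Benjamini-Hochberg adjustment, adjusted p = 0.0763). Total counts ran from 16721055 to 21646378 per pool. CharmeKO pool 1 stood apart by its mitochondrial-genome transcripts, 21.07% of its counts against 9.68% to 11.15% in the other pools, and CharmeKO pool 2 by 8 salivary gland marker genes, which summed to 24770 CPM (counts scaled to the TMM-adjusted library size) against 328.3 in CharmeKO pool 1 and at most 3.691 in CharmeWT. All 10 cardiomyocyte markers were detected and summed to between 53590 and 68310 CPM in CharmeWT and to 62850 and 55950 CPM in the CharmeKO pools. As a share of all counts these markers took 5.828% to 7.024% in CharmeWT and 5.306% and 5.767% in CharmeKO pools 1 and 2. Both CharmeKO shares were below every CharmeWT share, so the place of the CharmeKO pools turned with the scaling. Per the study's methods, hearts of littermates were pooled by genotype, and whether pools of a genotype came from separate litters is not given in the sources used here, so the p-values measure the spread between these 5 pools only.

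Of the 44 genes, 43 had at least 10 counts in at least 2 pools and were tested. Ankrd2, a stretch-linked ankyrin-repeat gene mainly of slow skeletal muscle, had 0, 5 and 2 counts in CharmeWT and 1 and 5 in CharmeKO and was too low to test. Calls needed an adjusted p below 0.1 and a mean level of 1 FPKM (fragments per kilobase of exon, scaled to the TMM-adjusted library size) or more in either genotype. By that rule 1 of the 43 genes was called, Ankrd1, which rose, and none was called lower. Of all 14880 genes tested 2.05% were called, 1.53% higher and 0.524% lower. At an unadjusted p under 0.05, 4 of the 43 were higher, against 10.6% of all genes, and 12 were lower, against 8.01% of all genes. DESeq2 called 2 of the 43 higher and 9 lower, against 4.33% and 3.21% of all genes. The likelihood ratio test of edgeR called 1 higher and 6 lower, against 3.92% and 2.35% of all genes.

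The group leaned low without passing the test gene by gene. Both CharmeKO pools lay below every CharmeWT pool for 18 of the 43 genes, against 18.2% of all genes, and above every CharmeWT pool for 4, against 17.8% of all genes; the other 21 overlapped. Of the 43, 27 had a log2 fold change under 0, against 48.2% of all genes, with a median of -0.15 against 0.02 over all genes and a range from -0.73 to 2.14. Set against the CharmeWT mean, the median member sat at 0.04, 0.00 and -0.07 in the CharmeWT pools, at -0.16 in CharmeKO pool 1 and at -0.26 in CharmeKO pool 2. Summed, the 44 genes took 2.171% to 2.293% of all counts in CharmeWT, 2.113% in CharmeKO pool 1 and 1.88% in CharmeKO pool 2. After TMM scaling, which raises CharmeKO pool 1 through its factor of 0.8449, the sums were 20090 to 22440 CPM in CharmeWT, 25030 CPM in CharmeKO pool 1 and 18240 CPM in CharmeKO pool 2, so the place of CharmeKO pool 1 against CharmeWT turned with the scaling and CharmeKO pool 2 was lowest on both.

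**Figure D1:**
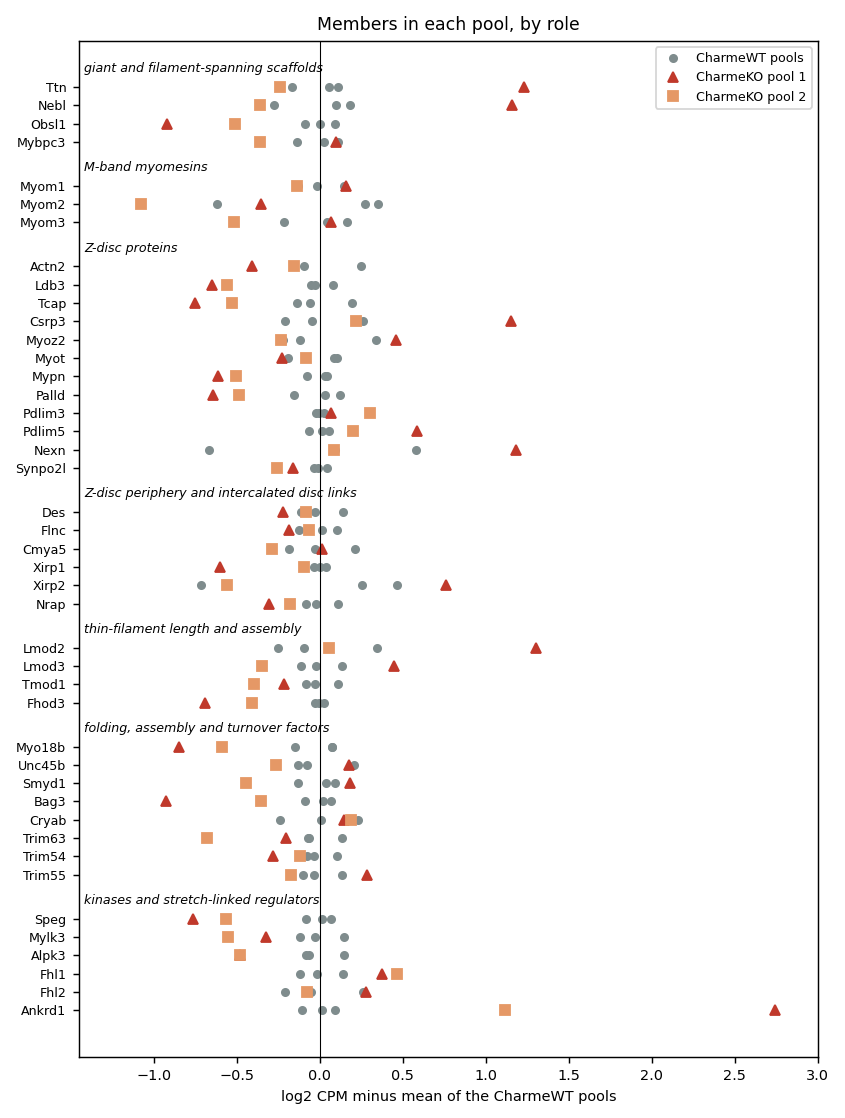
Each of the 43 tested genes is a line, grouped by role, and the horizontal axis is log2 CPM minus the mean of the CharmeWT pools. Grey circles are the 3 CharmeWT pools, red triangles CharmeKO pool 1 and orange squares CharmeKO pool 2, and Ankrd1 at the bottom is the only gene with both CharmeKO pools more than 1 log2 unit above the CharmeWT mean.

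Ankrd1 (ENSMUSG00000024803, GRCm38 chr19:36111961-36120099, minus strand) encodes the cardiac ankyrin repeat protein, which binds titin in the elastic I-band and also enters the nucleus, and is a known early gene of stretched and fetal heart muscle. Its promoter is shown by the short stretches that hold M-CAT letters (CATTCC, the element bound by TEAD factors) or GATA letters (AGATAA), both known in heart muscle promoters. They are read 5′ to 3′ on the gene's strand from RefSeq GRCm38.p6, with the matched letters, here on the opposite strand, in capitals.
Ankrd1 M-CAT, chr19:36120039-36120064, 210 bases before the RefSeq start: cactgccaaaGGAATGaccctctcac
Ankrd1 M-CAT, chr19:36119952-36119977, 123 bases before the start: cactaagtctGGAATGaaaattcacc
Ankrd1 GATA, chr19:36119876-36119901, 47 bases before the start: ggctggaagaTTATCTcacccagccc
At least 1 M-CAT match stands in the 250 bases before 12.6% of all 32851 RefSeq starts and before 7 of the 34 members with an entry (20.6%). The GATA letters stand before 9.99% of all starts and 5 of the 34 (14.7%). These matches describe letters, not bound sites, and GENCODE lists 1 longer Ankrd1 transcript whose first exon covers this stretch.

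Ankrd1 stood at 124, 130 and 113 FPKM in the CharmeWT pools and at 817 and 265 FPKM in CharmeKO pools 1 and 2. Both CharmeKO pools were above every CharmeWT pool, and the 2 CharmeKO pools differed from each other by 3.08-fold, more than the CharmeWT pools did. The CharmeWT mean was 122 ± 8.38 FPKM (SD, n = 3) and the CharmeKO mean 541 ± 390 FPKM (SD, n = 2), and Ankrd1 rose by 2.14 on the log2 scale (SE 0.37, 4.42-fold, edgeR quasi-likelihood test, adjusted p = 0.0423). Without CharmeKO pool 1 the log2 fold change was 1.11 and without CharmeKO pool 2 it was 2.73, and Ankrd1 passed the threshold both times. In each of these fits the single CharmeKO pool adds nothing to the estimated spread, which comes from the CharmeWT pools, so a call there assumes that CharmeKO pools vary like CharmeWT pools and is not a replicated result. Without CharmeWT pool 1 it was 2.15 and no longer called (adjusted p = 0.170), as without CharmeWT pool 3 (2.09, adjusted p = 0.275), settings in which 2 and 0 genes of the whole table were called.

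Some lists of markers of other cell types and tissues moved alongside, and others did not. All 6 atrial cardiomyocyte markers were higher in CharmeKO, summing to 1424 to 1857 CPM in CharmeWT and to 2796 and 3756 CPM in CharmeKO. By the quasi-likelihood test 2 were called, Myl4, the atrial light chain (log2 fold change 1.21, adjusted p = 0.0343), and Bmp10 (1.10, adjusted p = 0.0821). The atrial sum was highest in CharmeKO pool 2, while Ankrd1 was highest in CharmeKO pool 1. Of 16 skeletal muscle markers, 10 were tested and 9 had both CharmeKO pools above CharmeWT, where 17.8% of all genes did. The remaining tested marker, Cacna1s, had both CharmeKO pools below CharmeWT (log2 fold change -1.69). The list summed to 17.3 to 21.57 CPM in CharmeWT and 40.24 and 72.17 CPM in CharmeKO. Myf5 and Myh4 were at 0 in every pool and Myod1 at 0 in 4. All 6 erythroid markers had both CharmeKO pools above every CharmeWT pool and 3 were called, with sums of 866.6 to 1252 CPM in CharmeWT and 2281 and 1616 CPM in CharmeKO pools 1 and 2. Of 6 adipose markers, 5 were tested and 3 were called higher (Ucp1, Adipoq and Plin1). They summed to 528 to 688.8 CPM in CharmeWT and 694.3 and 2012 CPM in CharmeKO. Other sums overlapped between the genotypes. These were 1280 to 2266 CPM against 1607 and 1780 CPM for smooth muscle and pericyte markers, and 3913 to 4660 against 4532 and 5664 for fibroblast markers. Endothelial markers summed to 821.5 to 1015 CPM against 790.1 and 842.2 CPM, and macrophage markers to 76.98 to 111 against 73.75 and 132. The part of these cell types and tissues, of the mitochondrial share or of any other library difference in the Ankrd1 values was not tested.

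**Figure D2:**
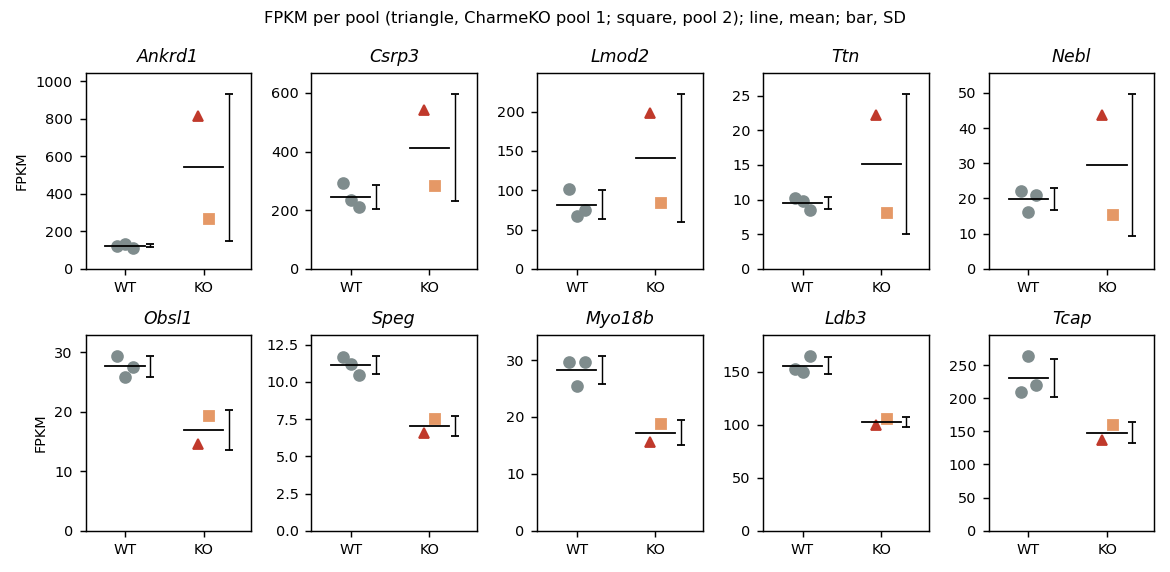
FPKM of 10 genes in each pool on linear axes from 0, with grey circles for CharmeWT pools, a red triangle for CharmeKO pool 1, an orange square for CharmeKO pool 2, a line at each group mean and a bar of 1 SD beside it. In the upper 5 panels CharmeKO pool 1 is far above the rest, and in the lower 5 both CharmeKO pools are below all 3 CharmeWT pools.

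The giant and filament-spanning scaffolds did not move as a group: none of the 4 was called, and their log2 fold changes ran from -0.70 to 0.67 with a median of 0.23. Titin (Ttn, chr2:76703980-76982547) has the longest exon sequence of the group, 116825 bases. It stood at 10.2, 9.85 and 8.45 FPKM in CharmeWT and at 22.3 and 8.02 FPKM in CharmeKO pools 1 and 2. CharmeKO pool 1 was above and CharmeKO pool 2 below every CharmeWT pool. The log2 fold change of 0.67 (SE 0.36, adjusted p = 0.34) was -0.25 without CharmeKO pool 1 and 1.22 without CharmeKO pool 2. Nebulette (Nebl), which lines thin filaments at the cardiac Z-disc, had the same order, at 22.3, 16.2 and 20.98 FPKM in CharmeWT and 43.8 and 15.3 FPKM in CharmeKO. Its log2 fold change was 0.58 (SE 0.36, adjusted p = 0.40), and -0.37 without CharmeKO pool 1. Mybpc3, the cardiac myosin-binding protein C of the thick filament, was the most abundant of the 44 per length, at 874, 824 and 735 FPKM in CharmeWT and 866 and 630 FPKM in CharmeKO, which overlapped (log2 fold change -0.12, SE 0.26, adjusted p = 0.83).

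Obsl1, an M-band linker of titin and myomesin, went the other way from Ttn. It stood at 29.4, 25.9 and 27.6 FPKM in CharmeWT and at 14.6 and 19.4 FPKM in CharmeKO, both below every CharmeWT pool. The log2 fold change was -0.70 (SE 0.19, adjusted p = 0.13), not called, although DESeq2 (adjusted p = 0.0235) and the likelihood ratio test (adjusted p = 0.0507) called it. Adding a per-pool trend on exon length and GC content took it to -0.27, with an adjusted p of 0.44. Such a trend also removes any genotype difference that follows length or GC content, so it cannot tell library and genotype differences apart. Des, Speg and Obsl1 lie within 146.1 kb of each other on chr1:75360329-75506452, and their log2 fold changes were -0.15, -0.66 and -0.70.

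The myomesins cross-link myosin tails at the M-band, and their levels per length were far apart. Myom1, the isoform of all striated muscle, stood at 82.6, 73.9 and 68.4 FPKM in CharmeWT and 83.5 and 67.97 FPKM in CharmeKO, just outside that range on either side, with a log2 fold change of 0.01 (SE 0.20, adjusted p = 0.98). Myom2, the M-protein of fast and adult muscle, stood at 104, 53.3 and 98.8 FPKM in CharmeWT and 64.0 and 38.8 FPKM in CharmeKO. CharmeWT pool 2 lay between the CharmeKO pools, so the groups overlapped (log2 fold change -0.73, SE 0.32, adjusted p = 0.26). With CharmeKO pool 2 as the only CharmeKO pool it passed the threshold at -1.14, on a spread taken from CharmeWT alone, as did 1.27% of all genes in that direction. Myom3, mainly of slow skeletal muscle, was under 0.33 FPKM in every pool (log2 fold change -0.24, SE 0.39, adjusted p = 0.76).

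Among the 12 Z-disc proteins none was called, and the median log2 fold change was -0.18. Both CharmeKO pools were below CharmeWT for 6 of the 12, against 18.2% of all genes, and above for 2, against 17.8%. The most abundant was Actn2, the cardiac alpha-actinin that cross-links actin at the Z-disc, at 565, 718 and 544 FPKM in CharmeWT and 455 and 543 FPKM in CharmeKO. The CharmeKO pools were lower, CharmeKO pool 2 by less than 2 FPKM from the nearest CharmeWT pool (log2 fold change -0.29, SE 0.24, adjusted p = 0.54). Tcap, the telethonin cap that holds the titin ends in the Z-disc, stood at 209, 263 and 221 FPKM in CharmeWT and 137 and 160 FPKM in CharmeKO. Its log2 fold change was -0.64 (SE 0.19, adjusted p = 0.15). It was called lower by DESeq2 (adjusted p = 0.0425), by the likelihood ratio test (adjusted p = 0.0767) and with a correction for exon length alone (-0.83, adjusted p = 0.0957), a setting in which 1.18% of all genes were called higher and 0.632% lower. Its exons span 948 bases, the fewest of the 44. Ldb3, the PDZ-LIM protein Cypher that ties alpha-actinin to signalling kinases, stood at 152, 150 and 165 FPKM in CharmeWT and 99.3 and 106 FPKM in CharmeKO (log2 fold change -0.60, SE 0.19, adjusted p = 0.16). Ldb3 had the same separation as Tcap, and its log2 fold change with the length and GC correction was -0.53.

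Mypn and Palld, the alpha-actinin-binding myopalladin and palladin, were alike in size. Mypn stood at 12.8, 13.9 and 13.98 FPKM in CharmeWT and 8.88 and 9.56 FPKM in CharmeKO (log2 fold change -0.56, SE 0.17, adjusted p = 0.16). Palld stood at 37.9, 46.02 and 43.3 FPKM in CharmeWT and 27.1 and 30.1 FPKM in CharmeKO (log2 fold change -0.57, SE 0.18, adjusted p = 0.17). For both genes the CharmeKO pools were below every CharmeWT pool, and DESeq2 called both. Their relative Myot, the myotilin of skeletal Z-discs, was under 1 FPKM in every pool, with 24 to 42 counts, and overlapped. Synpo2l, an actin-associated Z-disc protein, was lower in both CharmeKO pools by less, at 93.0 to 98.1 FPKM against 85.3 and 79.6 FPKM (log2 fold change -0.21, SE 0.17, adjusted p = 0.53).

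A further 5 Z-disc genes were on the other side of 0. Csrp3, the muscle LIM protein linked to stretch sensing at the Z-disc, stood at 291, 236 and 210 FPKM in CharmeWT and 542 and 284 FPKM in CharmeKO. CharmeKO pool 2 lay inside the CharmeWT range (log2 fold change 0.75, SE 0.28, adjusted p = 0.21), and DESeq2 called the gene higher (adjusted p = 0.0884). Nexn, the actin-binding nexilin, had the widest spread of the 12 within CharmeWT on the log2 scale. It stood at 136, 57.2 and 96.8 FPKM in CharmeWT and 207 and 96.6 FPKM in CharmeKO (log2 fold change 0.65, SE 0.37, adjusted p = 0.37). The PDZ-LIM genes Pdlim5 and Pdlim3, kin of Ldb3, were the 2 with both CharmeKO pools above CharmeWT. Pdlim5 stood at 38.5 to 41.9 FPKM in CharmeWT and 60.4 and 46.3 FPKM in CharmeKO (log2 fold change 0.40, SE 0.19, adjusted p = 0.28). Pdlim3 stood at 14.3 to 14.8 FPKM against 15.2 and 17.9 FPKM (log2 fold change 0.19, SE 0.17, adjusted p = 0.56). Myoz2, the calcineurin-binding calsarcin of slow and cardiac muscle, stood at 122 to 180 FPKM in CharmeWT and at 196 and 121 FPKM in CharmeKO, on either side of that range (log2 fold change 0.13, SE 0.25, adjusted p = 0.80).

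The 6 genes at the edge of the Z-disc and the intercalated disc were the group with the smallest differences, from -0.33 to 0.14 on the log2 scale, with none called and none at an unadjusted p under 0.05. Des, the desmin filament that links neighbouring Z-discs, stood at 341, 305 and 287 FPKM in CharmeWT and 266 and 293 FPKM in CharmeKO, which overlapped (log2 fold change -0.15, SE 0.20, adjusted p = 0.70). Flnc, the actin cross-linker filamin C, and Cmya5, the large desmin-binding myospryn, had log2 fold changes of -0.13 and -0.14, and both overlapped. Xirp1, an actin-bundling Xin-repeat protein of the intercalated disc, stood at 64.4, 62.9 and 61.2 FPKM in CharmeWT and 41.4 and 58.8 FPKM in CharmeKO, both lower (log2 fold change -0.33, SE 0.20, adjusted p = 0.39). Its relative Xirp2 was much scarcer per length, at 1.29, 0.657 and 1.49 FPKM in CharmeWT and 1.83 and 0.733 FPKM in CharmeKO, and overlapped (log2 fold change 0.14, SE 0.42, adjusted p = 0.87). Nrap, a scaffold of early myofibrils and the intercalated disc, was lower in both CharmeKO pools, at 67.4 to 77.1 FPKM against 57.9 and 63.1 FPKM (log2 fold change -0.24, SE 0.18, adjusted p = 0.47).

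Thin-filament length is set at the pointed end by leiomodins, which lengthen filaments, and tropomodulin, which caps them. Lmod2, the cardiac leiomodin, stood at 102, 67.7 and 75.3 FPKM in CharmeWT and 198 and 83.7 FPKM in CharmeKO. CharmeKO pool 1 was above all others and CharmeKO pool 2 inside the CharmeWT range (log2 fold change 0.79, SE 0.32, adjusted p = 0.24). Lmod3 stood at 25.5 to 30.3 FPKM in CharmeWT and at 37.6 and 21.7 FPKM in CharmeKO, on either side of that range (log2 fold change 0.10, SE 0.24, adjusted p = 0.84). Tmod1 stood at 120, 132 and 115 FPKM in CharmeWT and 105 and 92.8 FPKM in CharmeKO, both lower (log2 fold change -0.30, SE 0.18, adjusted p = 0.39). Fhod3, the cardiac formin that promotes actin assembly in sarcomeres, stood at 61.1, 59.9 and 58.9 FPKM in CharmeWT and 37.1 and 45.2 FPKM in CharmeKO. Both values were below the narrow CharmeWT range (log2 fold change -0.54, SE 0.18, adjusted p = 0.18), and DESeq2 called the gene lower. None of the 4 was called by the quasi-likelihood test.

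None of the 8 folding, assembly and turnover factors was called, and 4 had both CharmeKO pools below CharmeWT, against 18.2% of all genes. Myo18b (chr5:112688876-112896362), an unconventional myosin needed for sarcomere assembly, stood at 29.6, 25.5 and 29.7 FPKM in CharmeWT and 15.7 and 18.8 FPKM in CharmeKO, with no overlap. Its log2 fold change was -0.71 (SE 0.18, 6529, 4816 and 6284 counts against 2369 and 4485) and its adjusted p of 0.115 was the lowest among the members with a negative value. It was called lower by DESeq2 (adjusted p = 0.0134) and by the likelihood ratio test (adjusted p = 0.0379), and its corrected log2 fold change for length and GC content was -0.34, with an adjusted p of 0.34. Bag3, the co-chaperone that clears damaged filamin at the Z-disc, stood at 43.05, 46.4 and 48.1 FPKM in CharmeWT and 24.1 and 35.8 FPKM in CharmeKO (log2 fold change -0.61, SE 0.20, adjusted p = 0.18). Bag3 differed by nearly as much after that correction, at -0.56 and an adjusted p of 0.106.

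The myosin-folding pair was not separated by genotype. Unc45b, the muscle myosin chaperone, stood at 67.0 to 84.4 FPKM in CharmeWT and 82.7 and 61.0 FPKM in CharmeKO (log2 fold change -0.03, SE 0.20, adjusted p = 0.94). Smyd1, the methyltransferase that works with it, stood at 120 to 140 FPKM and at 149 and 96.8 FPKM, on either side (log2 fold change -0.10, SE 0.22, adjusted p = 0.83). The small heat shock protein Cryab, a desmin and titin chaperone, was the most abundant of this group, at 399, 464 and 336 FPKM in CharmeWT and 439 and 452 FPKM in CharmeKO, within the CharmeWT range (log2 fold change 0.16, SE 0.20, adjusted p = 0.69). Of the 3 muscle RING-finger ubiquitin ligases, Trim63 (MuRF1) stood at 106, 92.8 and 92.5 FPKM in CharmeWT and 84.3 and 60.7 FPKM in CharmeKO, both lower (log2 fold change -0.42, SE 0.20, adjusted p = 0.28). With CharmeKO pool 2 alone, and a spread taken from CharmeWT alone, it passed the threshold at -0.68. Trim54 (MuRF3) was scarce, at 5.35 to 6.07 FPKM against 4.64 and 5.18 FPKM (log2 fold change -0.20, SE 0.25, adjusted p = 0.69). Trim55 (MuRF2) was the most abundant ligase per length, at 124 to 147 FPKM in CharmeWT against 163 and 119 FPKM, again on either side (log2 fold change 0.07, SE 0.20, adjusted p = 0.87).

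The 3 kinases were lower in both CharmeKO pools, as were 18.2% of all genes, and none was called. Speg (chr1:75375297-75432320), a titin-related kinase of the junctional membrane, stood at 11.7, 11.2 and 10.5 FPKM in CharmeWT and 6.56 and 7.51 FPKM in CharmeKO. The gap between the groups was wider than the spread within either (log2 fold change -0.66, SE 0.17, adjusted p = 0.12), and both alternative tests called it lower. Speg stood at -0.18 once length and GC content were corrected for, with an adjusted p of 0.65. Mylk3, the cardiac myosin light chain kinase, stood at 128, 121 and 145 FPKM in CharmeWT and 104 and 89.2 FPKM in CharmeKO (log2 fold change -0.44, SE 0.19, adjusted p = 0.26). Alpk3, an alpha-kinase of the M-band and nuclear envelope, stood at 24.7, 21.4 and 21.1 FPKM in CharmeWT and 16.02 and 16.05 FPKM in CharmeKO (log2 fold change -0.48, SE 0.17, adjusted p = 0.20).

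The LIM-only proteins Fhl1 and Fhl2, adaptors that dock on titin, differed from the kinases. Fhl1 stood at 44.01, 49.04 and 41.02 FPKM in CharmeWT and 57.9 and 61.6 FPKM in CharmeKO, and the CharmeKO pools were close to each other and above every CharmeWT pool (log2 fold change 0.42, SE 0.17, adjusted p = 0.24). Fhl2, the more abundant per length, stood at 453, 328 and 364 FPKM in CharmeWT and 459 and 358 FPKM in CharmeKO, and overlapped (log2 fold change 0.10, SE 0.22, adjusted p = 0.83).

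Where the 2 CharmeKO pools differed most from each other, CharmeKO pool 1 was the higher. In all, 12 of the 43 were at least 1.5-fold higher in CharmeKO pool 1 than in CharmeKO pool 2, against 15.5% of all genes, namely Ankrd1, Csrp3, Lmod2, Lmod3, Myom2, Myom3, Myoz2, Nebl, Nexn, Smyd1, Ttn and Xirp2. None was at least 1.5-fold lower, against 19.4% of all genes. Counting any size of difference, 23 of the 43 were higher in CharmeKO pool 1, against 49.4% of all genes. With 1 CharmeKO pool against CharmeWT the spread again comes from CharmeWT alone. With CharmeKO pool 2 alone, 36 of the 43 had a negative log2 fold change, against 50.7% of all genes. With CharmeKO pool 1 alone 23 did, against 50.9% of all genes, and 19 were called, 8 higher and 11 lower, where 16.1% of all genes were called higher and 15.6% lower. With CharmeKO pool 2 alone 1 was called higher, against 3.06%, and 2 lower, against 1.27%. CharmeKO pool 1 is also the library with the high mitochondrial share and CharmeKO pool 2 the one with the most salivary gland RNA. The salivary gland markers summed to 24770 CPM in CharmeKO pool 2, 328.3 CPM in CharmeKO pool 1 and at most 3.691 CPM in CharmeWT. Removing the mitochondrial and salivary gland genes left Ankrd1 called and the median member at -0.15. That step changes no member's counts, only the scaling and the shared fit, so it cannot show the part of these library differences, which was not tested.

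**Figure D3:**
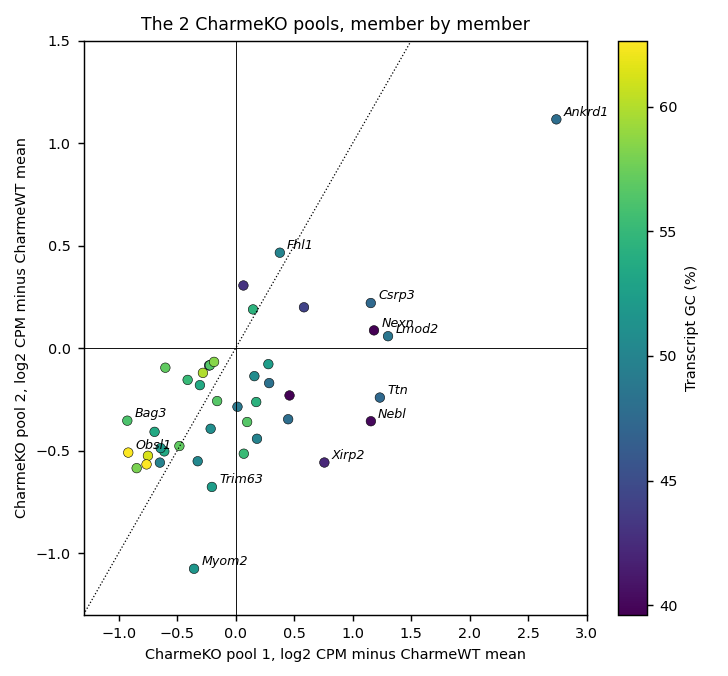
Each point is a gene, with its log2 CPM minus the CharmeWT mean in CharmeKO pool 1 on the horizontal axis and in CharmeKO pool 2 on the vertical axis, coloured by transcript GC content, and the dotted line marks equal values. Ankrd1 lies far to the upper right, Ttn, Nebl and Xirp2 lie to the right of 0 and below it, and the GC-rich Obsl1 lies to the left and below 0.

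Base composition went with these differences. GC content is that of the longest GENCODE M21 transcript, and exon length the union of the gene's exons. Across the 43 genes the Spearman correlation of the log2 fold change with GC content was -0.68, and across all genes with a value -0.39. In CharmeKO pool 1 it was -0.71 over the members and -0.52 over all genes, and in CharmeKO pool 2 it was -0.32 and -0.06. The 12 members in the highest of 5 GC bands, from 55.5% upward, had a median log2 fold change of -0.40, where all genes in the band had -0.22. They include Obsl1 (62.5% GC), Speg (62.6%), Tcap (61.3%) and Myo18b (58.0%). The 6 in the second band, with Ankrd1, Csrp3 and Ttn, had a median of 0.54, where all genes had 0.12. The 5 in the lowest band, up to 43.9%, had a median of 0.19, where all genes in the band had 0.30, and among them were Nebl (40.1%), Nexn (39.6%) and Myoz2 (39.7%). Points in such a correlation share the same 5 libraries, so it is given as a description.

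For the mean fold change the correlation with gene length was smaller, at -0.21 with exon length over the members and -0.11 over all genes. By pool it was -0.14 and -0.04 in CharmeKO pool 1, and -0.39 and -0.20 in CharmeKO pool 2, where it was larger than that with GC content, and for the difference between the CharmeKO pools it was -0.0021 over the members. The 12 members above 7.395 kb had a median log2 fold change of -0.13, where all genes that long had -0.04, and they held Ttn at 0.67 and Nebl at 0.58 as well as Obsl1 at -0.70, Myo18b at -0.71 and Speg at -0.66. Of these 5, Ttn and Nebl had a GC content of 47.4% and 40.1%, and the other 3 of 58.0% to 62.6%. With a spline trend on length and GC content removed in each pool, the median of the members was -0.06, where all genes had -0.04, and 3 were higher and 5 lower at an unadjusted p under 0.05. Ankrd1 was still the only called member, at 1.97 (adjusted p = 0.0581), where 1.55% of all genes were called higher and 0.914% lower. Ttn stood at 0.63, Lmod2 at 0.58, Csrp3 at 0.54, Nebl at 0.25 and Nexn at 0.20.

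**Figure D4:**
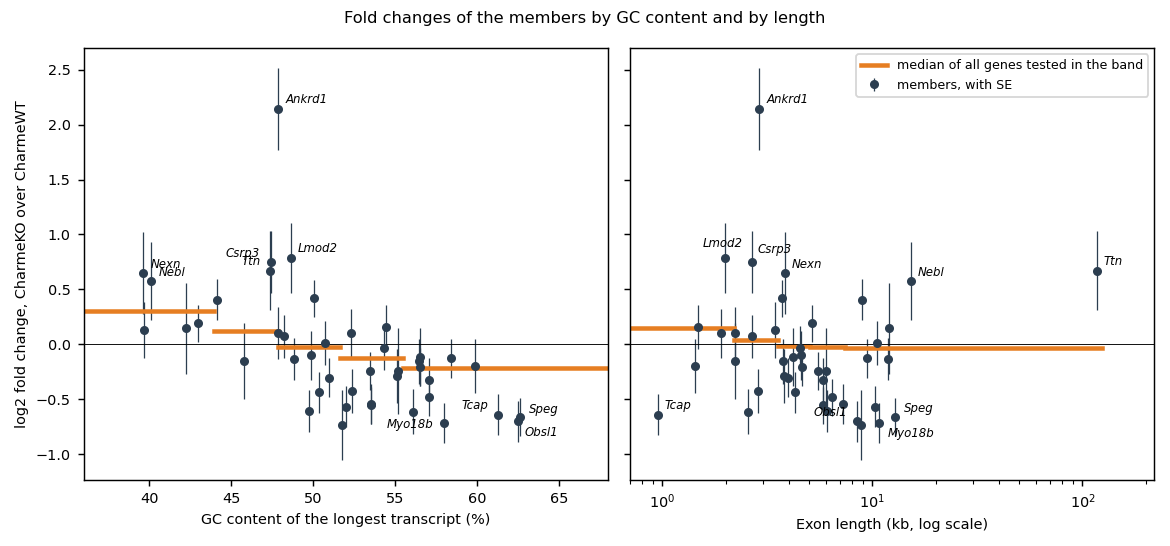
The log2 fold change of each member, with its SE, against the GC content of its longest transcript (left) and against its exon length on a log axis (right), where orange bars give the median of all genes tested in each of 5 bands. The orange bars step down from 0.30 to -0.22 with GC content and from 0.15 to -0.04 with length, and the members' medians in the 5 GC bands are 0.19, 0.54, -0.10, -0.29 and -0.40, with Ankrd1 in the second band.

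**Figure D5:**
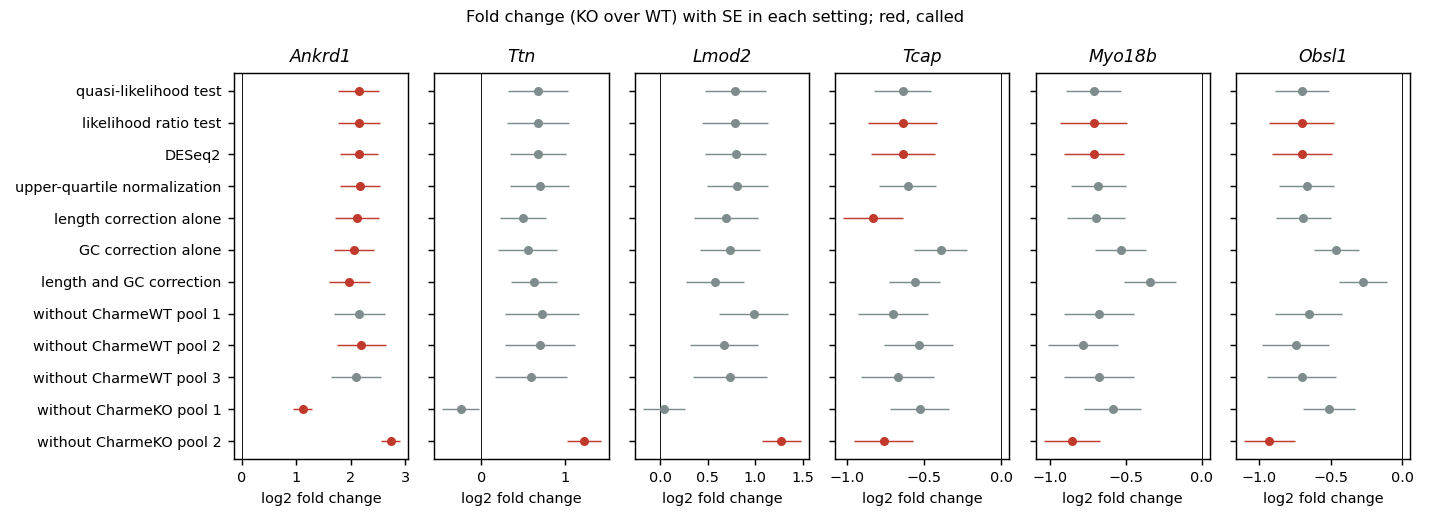
Log2 fold change with its SE for 6 members in 12 settings of test, normalization, correction and left-out pool, red where called. Ankrd1 is above 0 in all 12, Ttn crosses 0 without CharmeKO pool 1, and Obsl1 and Myo18b move toward 0 with the length and GC correction.

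Promoter letters were compared last. Of the 34 members with a RefSeq promoter entry, 6 held the MEF2 box (17.6%), the A and T rich element of muscle genes, in the 250 bases before the start, against 0.508% of all 32851 starts. The 6 were Mybpc3, Myoz2, Speg, Synpo2l, Ttn and Xirp2, and their log2 fold changes of -0.12, 0.13, -0.66, -0.21, 0.67 and 0.14 fell on both sides of 0. The windows of Ttn, Speg and Mybpc3 are printed because these genes hold the same box, with log2 fold changes of opposite sign or near 0. They are from RefSeq GRCm38.p6, 5′ to 3′ on the gene's strand and ending 1 base before the start, with the MEF2 box in capitals.
Ttn, chr2:76982548-76982797, minus strand, box 166 bases before the start: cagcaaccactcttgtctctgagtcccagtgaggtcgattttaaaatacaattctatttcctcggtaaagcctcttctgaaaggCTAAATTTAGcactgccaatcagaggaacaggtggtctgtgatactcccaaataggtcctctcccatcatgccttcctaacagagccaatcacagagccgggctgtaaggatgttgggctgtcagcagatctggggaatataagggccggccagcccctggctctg
Speg, chr1:75375047-75375296, plus strand, box 51 bases before the start: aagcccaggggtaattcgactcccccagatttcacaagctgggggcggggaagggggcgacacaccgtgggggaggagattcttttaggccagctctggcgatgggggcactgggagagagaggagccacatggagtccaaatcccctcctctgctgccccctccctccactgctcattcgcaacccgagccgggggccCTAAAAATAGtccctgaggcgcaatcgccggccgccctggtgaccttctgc
Mybpc3, chr2:91117894-91118143, plus strand, box 90 bases before the start: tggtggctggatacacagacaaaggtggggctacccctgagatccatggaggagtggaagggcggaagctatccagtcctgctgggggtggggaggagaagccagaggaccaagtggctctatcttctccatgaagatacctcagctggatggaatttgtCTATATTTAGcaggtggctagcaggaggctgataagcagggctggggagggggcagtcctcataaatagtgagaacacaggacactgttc
The serum response CArG box stood in 4 members (11.8%), Fhl1, Fhl2, Ldb3 and Myom1, against 1.47% of all starts, and 7 (20.6%) the letters TATAAA, against 12.4%. The E-box letters CANNTG, so short that 66.2% of all starts hold them, stood before 29 of the 34. All motifs were searched on both strands, and none of the matches capitalized above overlaps another. No promoter entry was matched for Myom2, Tcap, Myot, Nexn, Xirp1, Lmod3, Fhod3, Myo18b, Cryab and Trim55.

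Other genes of the sarcomere were counted beside these. Of 48 further sarcomere-associated genes, 45 were tested and none was called by the quasi-likelihood test, with a median log2 fold change of 0.22. At an unadjusted p under 0.05, 7 were higher and 7 lower, against 10.6% and 8.01% of all genes. Both CharmeKO pools were above every CharmeWT pool for 13 and below for 8, against 17.8% and 18.2%. DESeq2 called 6 of the 45 and the likelihood ratio test 4, against 7.54% and 6.27% of all genes. Of 14 contractile proteins 12 were higher and 2 lower by any amount, where 48.2% of all genes were lower, with a median of 0.20. The 2 lower were Myl3 (log2 fold change -0.20) and Myh6 (-0.65), neither called. Myh6 stood at 2324, 2566 and 2091 FPKM in CharmeWT and 1092 and 1864 FPKM in CharmeKO. By the quasi-likelihood test 1 was called, Myl4, which rose, where 1.53% of all genes were called higher. Myl4 and Myl7 are also among the atrial markers.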

How the data were processed

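RNA from pooled postnatal day 2 hearts was sequenced with a stranded mRNA kit. Per the labels and the study's methods, the authors trimmed reads with cutadapt, aligned them to GRCm38 (mm10) with STAR and deposited raw counts of fragments per gene, unnormalized whole numbers; versions are not given in the sources used here. A deposited FPKM table was not used.

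Counts were normalized by TMM and tested with edgeR 4.0.16 in R 4.3.3 (quasi-likelihood test on genotype, Benjamini-Hochberg over the 14880 genes that reached 10 counts in 2 or more pools), in place of the likelihood ratio test of the study's methods, which was an alternative, as was DESeq2 1.42.0. Calls needed an adjusted p below 0.1 and a mean level of 1 FPKM or more in either genotype. The standard error is the size of the log2 fold change over the square root of F. FPKM was computed from counts and TMM-adjusted library sizes with exon lengths of GENCODE M21, which matched 49411 of 49671 genes, and all 44 members were mapped. The length and GC correction was a per-pool spline with 4 degrees of freedom. It was fitted to each pool's deviation from the mean of all pools, so it also removes genotype differences that follow length or GC content. Groups of 3 against 2 pools allow 10 assignments, so an exact permutation test could not go below p = 0.1 and none was run. Depth was 16721055 to 21646378 counts. Counts were low for Myom3, Myot and Ankrd2, and the parts of depth and of the number of pools in the precision were not tested. Counting used strand, so antisense overlaps do not share counts, whereas same-strand overlaps (Xirp1 with Cx3cr1, for example) may. The scripts were tested on simulated data. Members and gene lists were chosen with earlier results of these data known. Values were given for every member, which goes beyond the rule for named genes (called members, the most abundant and the most changed of each role, Myo18b and paralogue families). Promoter windows were RefSeq GRCm38.p6 sequences, 15 of 34 of which overlap their GENCODE gene. 1 item is not reported here.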

Additional observations from a re-analysis of the deposited data

How the results depend on the processing

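The alternatives covered the test, normalization, filter, threshold, replicate block, length and GC content, and each pool left out; corrections for length alone and GC content alone were chosen after seeing the data. The count of called members was 1, and 7 by the likelihood ratio test, 11 by DESeq2, 2 with the length correction alone, 0 with the replicate block and length and GC correction together, and 0 to 19 with each pool left out. The other sarcomere-associated genes gave 0, and 4, 6, 1 with the replicate block, 2 with the length and GC correction, 1 with the GC correction alone, and 0 to 19 with each pool left out. The median of the members was -0.15, -0.061 with the length and GC correction and -0.27 to -0.12 with each pool left out. Charme kept its direction but lost its call in the robust test (-2.49, adjusted p = 0.120), at a threshold of 0.05 (-2.49), and with the block and correction together (-2.58), and ran from -2.82 to -1.68 with each pool left out, where the call was lost without CharmeWT pool 1 (-1.68, adjusted p = 0.153) and without CharmeWT pool 3 (-2.72, adjusted p = 0.275). Fits with 1 CharmeKO pool take their spread from CharmeWT alone.

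After each genotype's mean was subtracted from log2 CPM, same-numbered pools correlated at 0.124 and 0.0667. With 2 CharmeKO pools the crossed pairs give the same sizes with the opposite sign, so this check cannot decide pairing. The pool numbers were taken as names and pairing was not used. With the replicate block 1 member was called, Ankrd1 at 1.88 (quasi-likelihood test, adjusted p = 0.0451), and 210 genes in all against 305. Signs turned for members near 0, where the cause was not tested. With the replicate block Myom1 was -0.052 and Lmod3 -0.0049. With the length and GC correction the values were 0.15 for Mybpc3, -0.33 for Myoz2, -0.031 for Pdlim3, 0.053 for Synpo2l, 0.037 for Des, 0.26 for Flnc, -0.061 for Xirp2, -0.13 for Lmod3, 0.17 for Unc45b and -0.10 for Trim55. With the GC correction alone they were 0.092 for Mybpc3, -0.27 for Myoz2, -0.049 for Pdlim3, 0.0046 for Des, 0.077 for Flnc, -0.18 for Xirp2, 0.11 for Unc45b and 0.011 for Trim54. With the length correction alone they were -0.0020 for Cryab and -0.023 for Fhl2, and without a filter Myom1 was -0.017. With the block and correction together they were 0.0051 for Mybpc3, 0.070 for Myom3, -0.41 for Myoz2, -0.085 for Pdlim3, 0.036 for Synpo2l, 0.15 for Flnc, -0.21 for Lmod3, 0.053 for Unc45b and -0.15 for Trim55.

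With each pool left out in turn, the sign turned for 13 members, which ran from -0.25 to 1.22 for Ttn, -0.37 to 1.13 for Nebl, -0.00099 to 1.09 for Nexn, -0.36 to 0.087 for Mybpc3, -0.14 to 0.15 for Myom1, -0.54 to 0.058 for Myom3, -0.25 to 0.43 for Myoz2, -0.65 to 0.66 for Xirp2, -0.35 to 0.44 for Lmod3, -0.27 to 0.16 for Unc45b, -0.44 to 0.17 for Smyd1, -0.17 to 0.28 for Trim55 and -0.091 to 0.26 for Fhl2. Of all values recomputed for the members, 814 kept direction and side of the threshold, 37 passed it only in the alternative, 3 lost it and 49 turned sign. All of these values rest on few pools, and those of Myom3, Myot and Ankrd2 on low counts as well.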
